A study of Mus musculus with 15 samples.

Results

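The genes of the cytosolic ribosomal proteins were followed in the maternal mouse liver through pregnancy and after a rise of the cell cycle inhibitor p21. They were taken by name from a table of 21702 protein-coding genes: a symbol of Rpl or Rps and a number, with or without the letters a, x, y or l, one of the stalk genes Rplp0, Rplp1 and Rplp2, or Rpsa. Of the 84 genes with such a name, 81 had at least 10 counts in at least 3 libraries and form the set, 32 of the small subunit and 49 of the large subunit. Rpl3l, Rpl10l and Rpl39l did not reach that count. Of the 81 genes, 77 encode the standard proteins and 4 encode paralogs of one of them, Rpl22l1, Rps27l, Rpl36al and Rpl7l1. All 81 were also among the 12172 genes that entered the tests. Fau and Rack1 encode ribosomal proteins under other names and are given apart.

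Whole liver of wild-type female C57BL/6 mice, of the substrain C57BL/6N per the study's methods, was profiled by RNA-seq in 15 libraries, 3 in each of 5 groups. Every animal had received an adeno-associated virus of serotype 8 (AAV8), so the controls carried a vector too. The AAV8-null virus held no insert, and the AAV8-p21 virus held the mouse cDNA of p21 (Cdkn1a) behind the hepatocyte promoter TBG. The groups were non-pregnant (NP) mice with AAV8-null, mice at 8 days post-coitum (dpc) with AAV8-null or AAV8-p21, and mice at 16 dpc with AAV8-null or AAV8-p21. The methods give an age of 8 to 14 weeks for all mice and the study's reporting summary 8 weeks to 12 months, with no age per group. NP mice with AAV8-p21 were not analysed here, so the viruses are compared in pregnancy alone. Nothing in the descriptions says which libraries shared a litter or a day, and p-values measure the spread among these 3 libraries a group. In bulk liver, fewer cells of a type and less RNA per cell cannot be told apart.

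A ribosome holds one copy of nearly every standard ribosomal protein, and cells make these proteins in matched amounts, so their mRNAs usually sit among the abundant mRNAs of a cell at related levels. Most of these mRNAs begin with a C followed by an unbroken run of pyrimidines, the 5′ terminal oligopyrimidine (TOP) tract, through which mTORC1 and LARP1 control their translation. Control of that kind moves ribosome loading and need not move the mRNA level, which is all that was measured here. Most of these genes also have processed pseudogenes, intronless copies of the mRNA scattered through the genome.

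The start sites are printed for the TOP feature, which the choice by name did not use. RefSeq promoters of build GRCm38.p6 were found for 61 of the 81 genes, with 72 annotated starts; each runs from 250 bases before the start to 50 bases after it. A run of at least 6 pyrimidines that began with C and reached within 5 bases of an annotated start was present for 31 of the 61 genes, 50.8%, and for 18.7% of all 27025 genes with a promoter. The lines below give 15 bases on each side of the start with that run in capitals. They begin with the gene called in a comparison by the main test, edgeR (Rpl22l1), and the kinase substrate Rps6. A stalk gene, a paralog pair and Rpl4, Rpl35a and Rpl10a follow. Where a gene has several starts, the one with the longest run is shown.
Rpl22l1 (chr3:28805493-28805522, plus strand): gtgcggcgcaagcccgttCTCTTCCCacgg
Rps6 (chr4:86857353-86857382, minus strand): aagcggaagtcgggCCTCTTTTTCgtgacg
Rplp2 (chr7:141447636-141447665, plus strand): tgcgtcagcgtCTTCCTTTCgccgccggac
Rps27 (chr3:90213634-90213663, minus strand): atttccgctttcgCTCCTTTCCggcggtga
Rps27l (chr9:66946071-66946100, plus strand): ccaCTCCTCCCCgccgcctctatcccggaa
Rpl4 (chr9:64173372-64173401, plus strand): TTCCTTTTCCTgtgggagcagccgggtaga
Rpl35a (chr16:33056467-33056496, plus strand): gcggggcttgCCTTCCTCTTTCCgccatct
Rpl10a (chr17:28328456-28328485, plus strand): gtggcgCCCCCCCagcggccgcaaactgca

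The run sits across the start in Rps6, Rplp2, Rps27 and Rpl35a, just after it in Rpl22l1, and before it in Rps27l, Rpl4 and Rpl10a. In Rpl4 the C that opens the run lies upstream of the printed window. The parent gene of Rpl22l1 has no such run in its window, nor do Rps13 and Rps3a1, which are printed for contrast with the same 30 bases. A missing run says only that these letters are not at the annotated start.
Rpl22 (chr4:152324421-152324450, plus strand): cgctgcttctggaatgttccagctcccact
Rps13 (chr7:116334176-116334205, minus strand): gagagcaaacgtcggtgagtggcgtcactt
Rps3a1 (chr3:86142654-86142683, minus strand): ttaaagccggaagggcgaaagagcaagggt

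The letters CCGGAAG, a core site of ETS-family factors, were found on either strand in 25 of the 61 promoters, 41.0%, and in 9.93% of all promoters. They can be seen in the Rps3a1 window. The TATA box letters TATAAA were in 7 promoters, 11.5%, against 15.7% of all. These matches describe the letters and were not tied to any change in level.

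The libraries held 12280709 to 17615185 counts on genes. All 9 hepatocyte markers were detected, with a summed level of 87192 to 451362 CPM (the count of a gene scaled to a common library total and by the trimmed-mean factor of edgeR), whereas T cell markers summed to at most 3.0 CPM and 5 neutrophil markers to at most 28.4 CPM. Markers of the other resident cells were present in every library, with 6 Kupffer cell markers summing to 153 to 409 CPM, 5 endothelial markers to 81.2 to 215 CPM, 5 stellate cell markers to 84.6 to 246 CPM and 6 erythroid markers to 49.6 to 201 CPM. The hepatocyte sum, which includes albumin, was at 111264 to 126558 CPM in NP mice. With AAV8-null it was at 87192 to 107619 CPM at 8 dpc and 322101 to 451362 CPM at 16 dpc. With AAV8-p21 it was at 117914 to 139075 CPM and 285827 to 319190 CPM. It thus differed without overlap in each of the 6 comparisons below, and its part in them was not tested. The Cdkn1a mRNA was at 3.29 to 33.7 CPM in NP libraries. At 8 dpc it was at 16.5 to 33.4 CPM in AAV8-null and 347 to 648 CPM in AAV8-p21 libraries. At 16 dpc it was at 59.8 to 127 and 815 to 1664 CPM, so each library went with its virus label. It does not check NP against 8 dpc: NP library 1, at 33.7 CPM, lay above every AAV8-null library at 8 dpc. NP libraries 2 and 3 were at 5.12 and 3.29 CPM. Albumin alone took 10.4% ± 0.580 of counts in NP mice, 9.17% ± 1.11 and 12.4% ± 0.642 at 8 dpc with AAV8-null and AAV8-p21, and 26.1% ± 2.30 and 21.1% ± 0.932 at 16 dpc (SD, n = 3), which lowers the share left for every other gene at 16 dpc.

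The 81 ribosomal protein genes together took between 0.694% and 1.48% of a library. Their share was 1.22% ± 0.228 in NP mice, 1.14% ± 0.0533 at 8 dpc with AAV8-null, 0.837% ± 0.124 at 16 dpc with AAV8-null, 1.11% ± 0.200 at 8 dpc with AAV8-p21 and 0.869% ± 0.0502 at 16 dpc with AAV8-p21 (SD, n = 3). With albumin taken out of the total, the same shares were 1.36%, 1.26%, 1.13%, 1.27% and 1.10%, a smaller drop at 16 dpc than with albumin left in. All levels below are in CPM with the trimmed-mean factor, which sets the middle of all genes equal between libraries.

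The members differed widely among themselves. Their mean level over 15 libraries ran from 25.1 CPM for Rpl22l1 to 499 CPM for Rpl4, a large subunit protein, with a median of 106.6 CPM. Per kilobase of transcript, the highest was Rplp1, which encodes an acidic protein of the ribosomal stalk, at 662.6 CPM per kb, followed by Rps29 at 327 and Rpl4 at 325. Rps4x, the X-linked small subunit gene, varied least, with its highest library 1.25 times its lowest. Rpl22l1 varied most, with its highest library 3.97 times its lowest, and the next member, Rpl28, 2.45 times.

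The genes moved together from library to library, and the libraries of a group could lie far apart. For each gene the log2 level in a library was set against its mean over all 15, and the median over members was taken. NP library 1 lay at 0.42, AAV8-p21 8 dpc library 3 at 0.31 and AAV8-p21 8 dpc library 1 at −0.41. NP library 1 had the highest level of its group for 76 of the 81 genes and of all 15 libraries for 46, and was 1.53-fold above the mean of the other NP libraries in the median member. AAV8-p21 8 dpc library 3 was highest in its group for 78 genes, whereas library 1 of that group was the lowest of all 15 for 61. Library 2 of that group lay at −0.23, nearer to library 1. AAV8-null 16 dpc library 1 lay at 0.30 and was highest in its group for 69 genes.

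**Figure D1:**
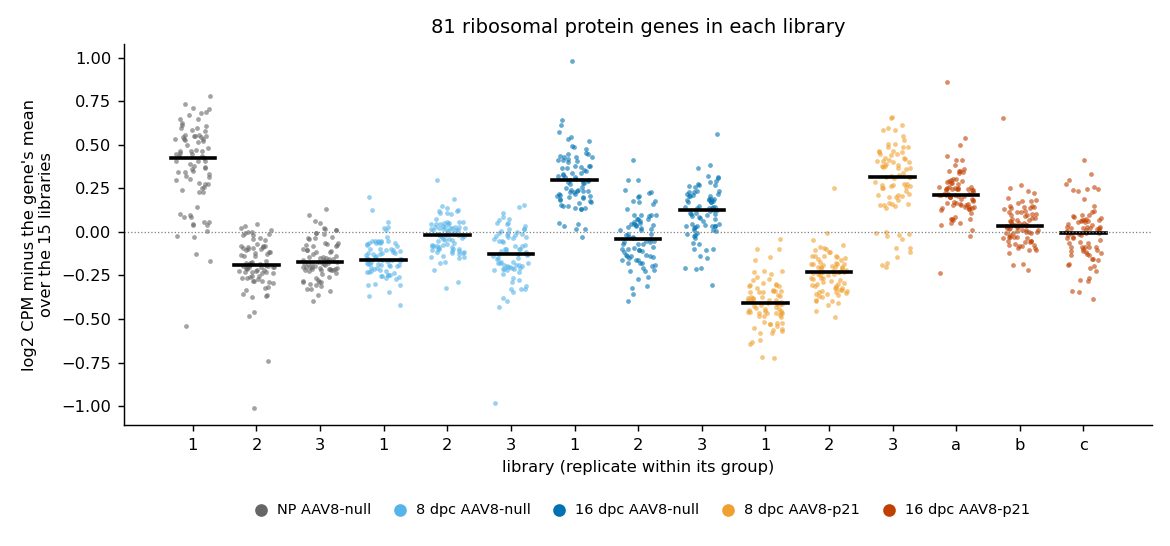
Each of the 81 genes (points) in each of the 15 libraries, coloured by group, as the log2 CPM minus the gene's mean over all libraries, with the median as a black line. NP library 1 and AAV8-p21 8 dpc library 3 sit above the other libraries of their group, at 0.42 and 0.31, and AAV8-p21 8 dpc library 1 lies lowest at −0.41.

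Transcript length went with part of this pattern. Ribosomal protein mRNAs are short, and 56 of the 81 are under 1 kb. In NP library 1 the 719 other genes under 1 kb lay at 0.45 in the median and the 3692 other genes of at least 4 kb at −0.26. In AAV8-p21 8 dpc library 3 the same values were 0.44 and −0.23. In both libraries the members therefore lay close to other short genes. In AAV8-p21 8 dpc library 1, by contrast, the members lay at −0.41 and other short genes at −0.16, and in AAV8-null 16 dpc library 3 at 0.13 and −0.13. The part of transcript length in the comparisons was not tested. Every median of the members that uses NP library 1 or AAV8-p21 8 dpc library 1 or 3 is given with and without it.

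**Figure D2:**
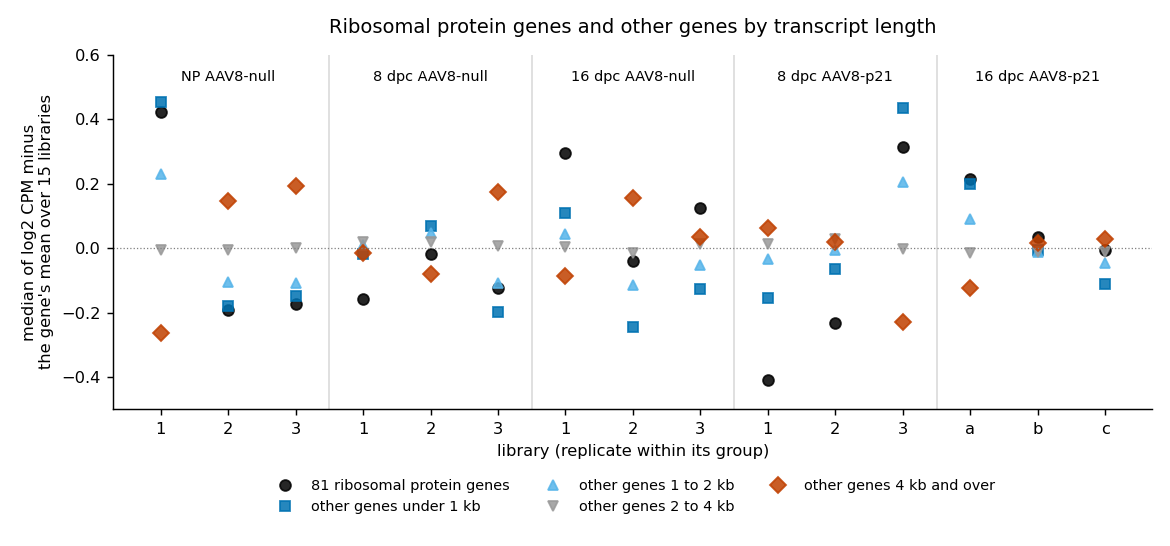
Median log2 deviation from the 15-library mean in each library for the 81 genes and for other genes grouped by transcript length in kb. The members lie near other genes under 1 kb in NP library 1 and AAV8-p21 8 dpc library 3, and apart from them in AAV8-p21 8 dpc library 1 and in the AAV8-null libraries at 16 dpc.

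The first comparison asks what mid-pregnancy does to these genes under AAV8-null. At 8 dpc the median member was lower than in NP mice by a log2 fold change of −0.15, with 8 genes higher and 73 lower, beside a median of −0.01 over all genes, of which 49% were higher. The 719 other genes under 1 kb were at −0.13, close to the members. None of the 81 was called at an adjusted p under 0.05 by edgeR's quasi-likelihood test with Benjamini-Hochberg adjustment over all 12172 genes, and 0% of all genes were called. None had an unadjusted p under 0.05 either, against 6.6% of all genes, and DESeq2 and limma voom also called none. In 2 members, Rps27 among them, all 3 libraries at 8 dpc lay below every NP library, which held for 5.52% of all genes. The direction turned without NP library 1, when the median was 0.08 with 61 genes higher. The shift at 8 dpc was smaller than the spread between the NP libraries. Stellate cell markers went from 161 to 185 CPM in NP mice to 84.6 to 138 CPM at 8 dpc, and neutrophil markers, 3 of 5 detected, from 0.548 to 1.66 CPM to 4.58 to 14.5 CPM, neither with overlap. Hepatocyte markers, given above, were also lower at 8 dpc without overlap, while Kupffer cell, endothelial and erythroid markers overlapped. Their part in the shift was not tested.

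The lowest member at 8 dpc was Rps27, a zinc finger protein of the small subunit, at −0.39 (SE 0.24), and Rpl35a was among the 3 lowest. Rpl35a, a large subunit protein known as a gene of Diamond-Blackfan anaemia, was at 104, 57.2 and 58.0 CPM in NP libraries and at 58.2, 65.3 and 53.2 at 8 dpc. Its high NP level came from library 1 alone, and its log2 fold change was −0.31 (SE 0.27).

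Under AAV8-null and trimmed-mean scaling, the fitted level of nearly every member was higher at 16 than at 8 dpc, though edgeR called none. From 8 to 16 dpc under AAV8-null the median log2 fold change was 0.26, with 76 genes higher and 5 lower, whereas the median over all genes was 0.00 and 50.4% of all genes were higher. The median was 0.27 over the small and 0.22 over the large subunit. In 30 members all 3 libraries at 16 dpc lay above all 3 at 8 dpc, 37.0% of members against 12.5% of all genes. No member was called by edgeR's quasi-likelihood test with Benjamini-Hochberg adjustment, where 6.87% of all genes were called. An unadjusted p under 0.05 was seen for 10 members, or 12.3%, less than the 22.7% of all genes, and DESeq2 called 5. The members' library medians, as deviations from the 15-library mean, were −0.16, −0.02 and −0.12 at 8 dpc with AAV8-null. At 16 dpc with AAV8-null they were 0.30, −0.04 and 0.13, so the 2 groups overlapped. Members move together within a library, so their counts are not independent, and edgeR called none alone. The median was between 0.14 and 0.31 without any single library. The 719 other genes under 1 kb had a median of −0.02 in the same comparison. The summed level of the endothelial markers, all 5 detected, went from 81.2 to 113 CPM at 8 dpc to 160 to 215 CPM at 16 dpc, and that of the 5 stellate cell markers, all detected, from 84.6 to 138 CPM to 169 to 246 CPM, neither with overlap. Kupffer cell markers overlapped, at 182 to 386 CPM and 169 to 267 CPM, and erythroid markers did not, at 89.4 to 102 CPM and 109 to 170 CPM. Hepatocyte markers did not overlap either, at 87192 to 107619 CPM and 322101 to 451362 CPM. Their part in the shift of the members was not tested.

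The sign of this shift depends on the scaling. With library totals alone and no trimmed-mean factor, the median member was at −0.44 with 80 of the 81 genes lower, but the median of all genes was then at −0.70, so that the members lay 0.26 above it, the same distance as with that factor. Size factors from DESeq2, or trimmed-mean factors computed without the members, kept the positive sign. Values here are relative to the middle of all genes and say nothing of the amount of ribosomal mRNA per cell.

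Against NP mice the level at 16 dpc was less clear. The median log2 fold change was 0.08, with 56 genes higher (47.5% of all genes) and 25 lower, beside −0.03 over all genes and −0.17 over other genes under 1 kb. By edgeR only Rpl22l1 was called higher, 1 of 81 genes where 6.52% of all genes were called and 3.71% called higher. DESeq2 called 3 members higher, Rpl3, Rpl4 and Rpl22l1, beside 9.95% of all genes called. An unadjusted p under 0.05 was seen for 5 members and for 21.2% of all genes. In 10 members, among them Rpl3, Rpl4, Rpl5, Rpl10a, Rplp0, Rps3 and Rps3a1, all 16 dpc libraries lay above all NP libraries, 12.3% of members and 12.1% of all genes. Without NP library 1 the median was 0.30 and 80 genes were higher, but it was −0.02 with 38 genes higher without NP library 2, −0.02 with 40 higher without NP library 3 and 0.008 with 41 higher without AAV8-null 16 dpc library 1, so its direction rested on single libraries. Scaled by library totals alone it was −0.59 with 80 genes lower, which is 0.11 above the median of all genes. Erythroid markers, 5 of 6 detected, were at 49.6 to 99.8 CPM in NP mice and 109 to 170 CPM at 16 dpc, and neutrophil markers at 0.548 to 1.66 CPM and 5.25 to 28.4 CPM, neither with overlap, while Kupffer cell, endothelial and stellate cell markers overlapped. Their part was not tested.

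**Figure D3:**
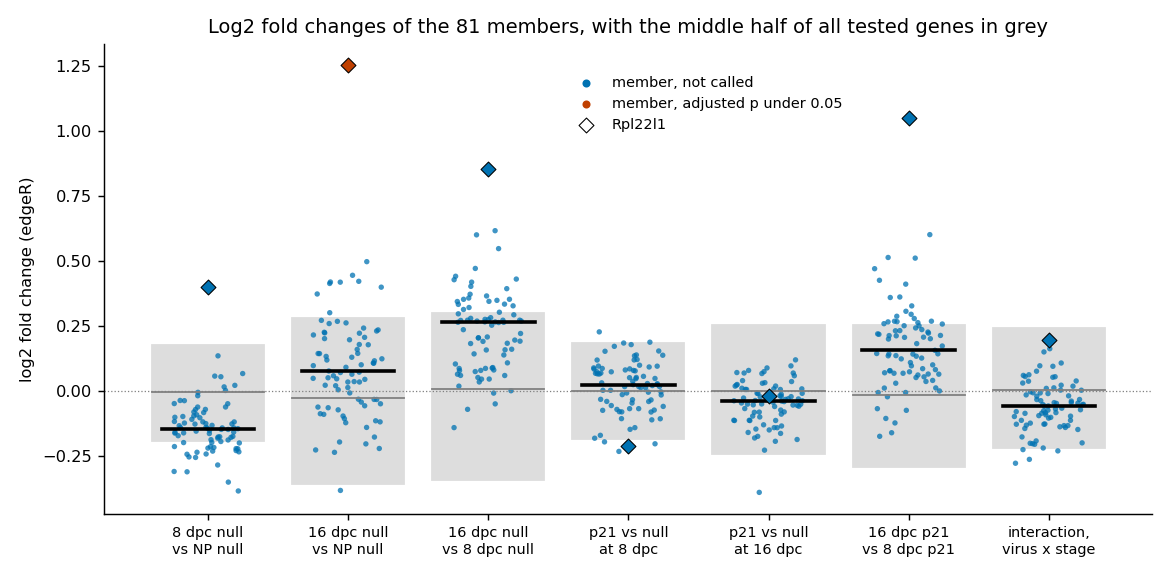
Log2 fold change of each of the 81 genes (points) in the 6 comparisons and in the interaction, with the members' median as a black line and the median and interquartile range of all 12172 genes as a grey line and box. The members' median lies above that of all genes from 8 to 16 dpc under both viruses, by 0.26 and 0.17, and Rpl22l1 (diamond) is set apart at 16 dpc.

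By edgeR, Rpl22l1 was the one gene of the set that rose past the threshold. It encodes a paralog of the large subunit protein Rpl22 and lies at chr3:28805436-28807424 on the plus strand. Its level was 15.8, 11.4 and 18.8 CPM in NP libraries, 26.4, 22.6 and 11.6 at 8 dpc with AAV8-null, and 45.2, 30.5 and 33.9 at 16 dpc with AAV8-null. With AAV8-p21 it was 13.9, 18.4 and 20.0 at 8 dpc and 41.6, 36.1 and 30.5 at 16 dpc. All 6 libraries at 16 dpc lay above all 9 others. The increase at 16 dpc over NP was 2.38-fold, a log2 fold change of 1.25 (SE 0.29, 95% interval 0.62 to 1.89, adjusted p = 0.0176 by edgeR's quasi-likelihood test with Benjamini-Hochberg adjustment).

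The steps from 8 to 16 dpc pointed the same way for Rpl22l1 and did not pass: 0.86 (SE 0.28, adjusted p = 0.0825) under AAV8-null and 1.05 (SE 0.28, adjusted p = 0.0585) under AAV8-p21, both by edgeR. DESeq2 called both. The call at 16 dpc against NP was lost without NP library 2 (adjusted p = 0.0869), without AAV8-null 16 dpc library 1 (adjusted p = 0.0585) and with library totals alone (0.58 on the log2 scale, adjusted p = 0.0807). Of the 86-base windows along its transcripts, 55.2% also occur in another annotated gene, a pseudogene or an antisense RNA, so reads of the copies and of the gene could be mixed or dropped.

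Its parent Rpl22, an RNA-binding protein of the large subunit, stayed within a narrow range under trimmed-mean scaling. It was at 105, 89.5 and 92.9 CPM in NP libraries and at 98.1, 92.7 and 83.8 at 16 dpc with AAV8-null, a log2 fold change of −0.07 (SE 0.16, 95% interval −0.43 to 0.30). The groups overlap. Only 0.356% of its windows are shared with another gene. The ratio of Rpl22l1 to Rpl22 within a library was 0.160 ± 0.0386 in NP mice, 0.235 ± 0.0951 at 8 dpc and 0.398 ± 0.0661 at 16 dpc with AAV8-null, and 0.199 ± 0.0361 and 0.409 ± 0.0336 with AAV8-p21 (SD, n = 3). The ratio at 16 dpc lay above that at 8 dpc and in NP mice with no overlap, and in an exact permutation test of the log2 ratios each of these steps gave p = 0.1, the smallest value that 3 libraries against 3 can give, and 0.267 after Benjamini-Hochberg adjustment over 24 ratio tests.

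**Figure D4:**
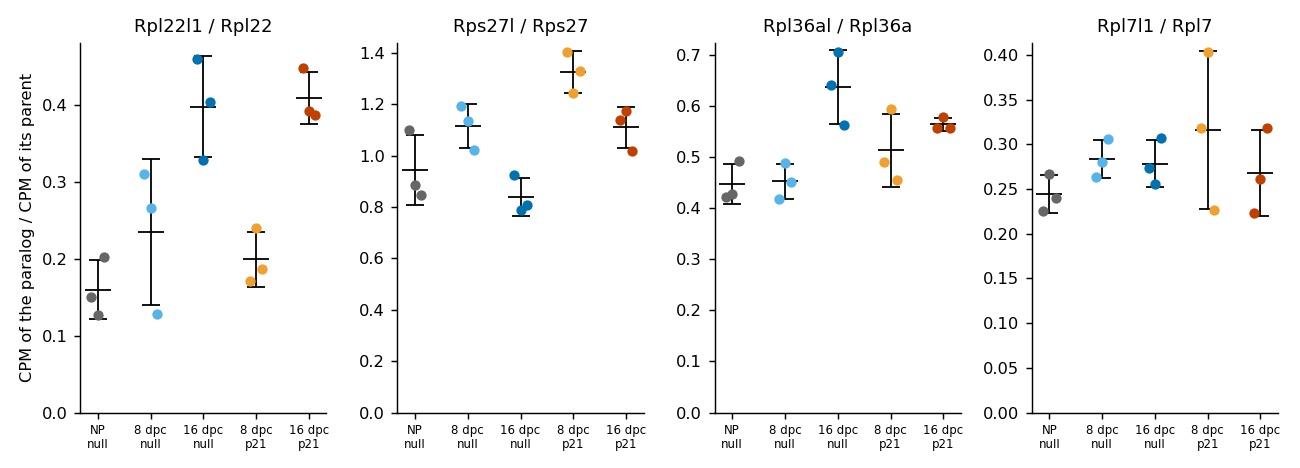
Ratio of the CPM of each of the 4 paralogs to that of the gene it is named after, per library (points) in the 5 groups, with the group mean and SD as horizontal lines and bars and axes from 0. The Rpl22l1 to Rpl22 ratio is higher at 16 dpc than before under both viruses, and the Rps27l to Rps27 ratio is higher with AAV8-p21 than with AAV8-null at both stages.

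Rpl4 had the highest mean CPM of the members, though not per kilobase, and the next largest increase after Rpl22l1 at 16 dpc over NP. It was at 479, 416 and 425 CPM in NP libraries and at 411, 442 and 422 at 8 dpc with AAV8-null. At 16 dpc it was at 689, 602 and 572 with AAV8-null. With AAV8-p21 the 8 dpc libraries gave 355, 391 and 458 and those at 16 dpc 653, 583 and 591. No 16 dpc library fell within the range of the earlier ones. The log2 fold change at 16 dpc was 0.50 over NP (SE 0.16, adjusted p = 0.0896), 0.55 over 8 dpc (SE 0.16, adjusted p = 0.0587) and 0.60 under AAV8-p21 (SE 0.16, adjusted p = 0.0598), all just short of the threshold of 0.05 by edgeR with Benjamini-Hochberg adjustment. DESeq2 called each of the 3. With library totals alone the values of Rpl4 under AAV8-null were −0.18 over NP and −0.16 over 8 dpc. Only 7.02% of the windows of Rpl4 are shared with another gene.

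After Rpl22l1, the highest log2 fold changes from 8 to 16 dpc under AAV8-null were those of Rps13 and Rps3a1. Rps3a1, a small subunit protein, stood at 150.4, 153 and 189 CPM at 8 dpc, then at 284, 223 and 238 at 16 dpc with AAV8-null, a log2 fold change of 0.60 (SE 0.19, adjusted p = 0.0675 by edgeR). Rps13, also of the small subunit, was at 64.8, 74.3 and 69.8 and then at 115, 97.4 and 108, a log2 fold change of 0.62 (SE 0.21, adjusted p = 0.0969 by edgeR). Neither gene had overlapping groups in this comparison. Both share windows with other annotated genes, 54.7% of those of Rps3a1, with 6 genes, and 78.2% of those of Rps13, with 5.

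Rpl3 encodes a protein next to the peptidyl transferase centre. It was at 148, 133 and 152 CPM in NP libraries and at 188, 188 and 202 at 16 dpc with AAV8-null, a log2 fold change of 0.42 (SE 0.14, adjusted p = 0.104 by edgeR). Rpl10a, a large subunit protein, was at 86.6, 72.9 and 79.4 in NP libraries and at 111, 102.5 and 102 at 16 dpc, a log2 fold change of 0.40 (SE 0.16, adjusted p = 0.161 by edgeR). For both genes all 16 dpc libraries lay above all NP libraries.

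**Figure D5:**
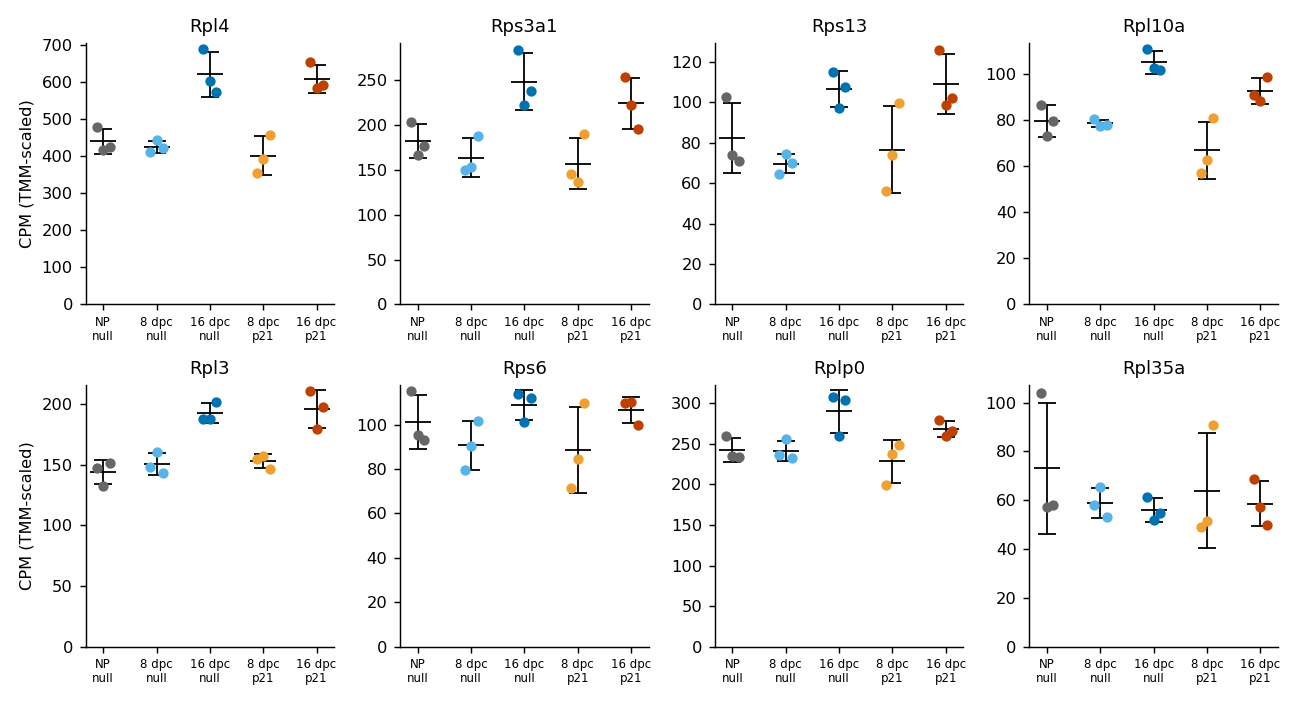
Level in CPM of Rpl4, Rps3a1, Rps13, Rpl10a, Rpl3, Rps6, Rplp0 and Rpl35a in each library (points) of the 5 groups, with the group mean and SD as horizontal lines and bars, and all axes from 0. Rpl4 is at 572 CPM or more in every 16 dpc library and at 479 or less in every other, whereas Rpl35a shows single high libraries in the NP and AAV8-p21 8 dpc groups.

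The stalk genes gave the smaller changes that were usual in the set. Rplp0, the anchor of the stalk, stood at 236, 256 and 233 CPM at 8 dpc, then at 308, 259.9 and 304 at 16 dpc with AAV8-null, a log2 fold change of 0.26 (SE 0.15, 95% interval −0.08 to 0.61). Rplp2 gave 0.27 (SE 0.18) and Rplp1 0.28 (SE 0.27). Rplp1 ranged from 239 to 367 CPM within the AAV8-null 8 dpc group alone. Rps6, the small subunit protein phosphorylated by S6 kinase downstream of mTORC1, was at 79.6, 90.5 and 102 at 8 dpc and 114, 101 and 112 at 16 dpc with AAV8-null, a log2 fold change of 0.27 (SE 0.18, 95% interval −0.13 to 0.66), with overlapping groups. None of these was called.

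A few members had a log2 fold change below 0 from 8 to 16 dpc under AAV8-null. Rps2, the decoding-site protein of the small subunit, was lowest of all with a log2 fold change of −0.14, Rpl35a was at −0.07 (SE 0.27) and Rps27l at −0.05 (SE 0.28). Their groups overlapped and none was called. None kept its sign without each library in turn: Rps2 and Rpl35a were at 0.009 and 0.006 without 8 dpc library 2, and Rps27l at 0.09 without 16 dpc library 2. Rps2 stood at 255, 309.5 and 208 CPM at 8 dpc, then at 254.5, 228 and 217 at 16 dpc with AAV8-null.

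The step from 8 to 16 dpc under AAV8-p21 gave a median log2 fold change of 0.16, with 71 genes higher and 10 lower, beside −0.02 over all genes, −0.05 over other genes under 1 kb and 48.1% of all genes higher. In 11 members the groups did not overlap, 13.6% against 11.5% of all genes, and Rpl3, Rpl4, Rpl5, Rpl9, Rpl10a and Rplp0 were among them. No member was called by edgeR, where 3.32% of all genes were called. An unadjusted p under 0.05 was seen for 9 members and for 16.4% of all genes, and DESeq2 called 6. Endothelial markers again did not overlap between the stages, at 106 to 139.8 CPM and 158 to 173 CPM, while stellate cell markers did, at 144 to 215 CPM and 181 to 226 CPM, and their part was not tested. The size of this step rested on the 8 dpc group: it was 0.42 with 80 genes higher without library 3 of that group, and 0.02 with 44 genes higher without library 1. Scaled by library totals alone it was −0.40, which is 0.19 above the median of all genes.

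The comparison of AAV8-p21 with AAV8-null asks whether raised p21 in hepatocytes goes with a different ribosomal protein mRNA level in pregnancy. At 8 dpc the median log2 fold change was 0.02, with 49 genes higher, where 49.6% of all genes were, and 32 lower. No member was called by edgeR or had an unadjusted p under 0.05, where 0.0246% and 5.18% of all genes did, and neither DESeq2 nor limma voom called any. Only Rps4x was lower in all AAV8-p21 libraries, 1.23% of members against 4.49% of all genes. Its levels were 122, 122 and 115 CPM with AAV8-p21 and 129, 129.6 and 138 with AAV8-null, a log2 fold change of −0.14 (SE 0.14). The median hid wide spread between libraries: it was −0.23 with 79 genes lower without AAV8-p21 library 3 and 0.17 with 71 genes higher without AAV8-p21 library 1. With library totals alone the median was −0.02 with 47 genes lower. Other genes under 1 kb were at 0.15. Erythroid markers were at 115 to 201 CPM with AAV8-p21 and 89.4 to 102 CPM with AAV8-null, stellate cell markers at 144 to 215 CPM and 84.6 to 138 CPM, and neutrophil markers at 1.88 to 3.26 CPM and 4.58 to 14.5 CPM, none with overlap, and their part was not tested.

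At 16 dpc the median log2 fold change of AAV8-p21 over AAV8-null was −0.04, with 24 genes higher and 57 lower, beside 0.00 over all genes, of which 50% were higher. No member was called by edgeR, DESeq2 or limma voom, where edgeR called 0.0739% of all genes, and none had an unadjusted p under 0.05, against 9.77% of all genes. In 4 members, Rpl10a, Rps3 and Rps19 among them, all 3 AAV8-p21 libraries were lower, 4.94% of members and 7.02% of all genes. Rps3 was at 209.5, 222 and 215 CPM with AAV8-p21 and at 268.5, 246 and 225 with AAV8-null, and Rps19, another gene of Diamond-Blackfan anaemia, at 84.3, 77.0 and 83.7 against 109, 89.9 and 88.4. With library totals alone the split turned to 63 higher and 18 lower with a median of 0.07, when all genes were at 0.11. The sign also turned without AAV8-null 16 dpc library 1, when the median was 0.05 with 58 genes higher, and without the third AAV8-p21 library, when it was 0.01 with 49 higher, and the median was between −0.13 and 0.05 without any single library. With trimmed-mean factors, other genes under 1 kb were at 0.12. Neutrophil markers were lower with AAV8-p21 without overlap, at 2.13 to 3.63 CPM against 5.25 to 28.4 CPM. Hepatocyte markers were also lower without overlap, at 285827 to 319190 CPM against 322101 to 451362 CPM. Cholangiocyte markers were higher without overlap, at 3.56 to 3.66 CPM against 1.17 to 3.30 CPM. So were T cell markers, at 1.165 to 2.98 CPM against 0.267 to 1.158 CPM. B cell, Kupffer cell, endothelial, stellate cell and erythroid markers overlapped. The part of these markers was not tested.

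For single genes the intervals leave room for moderate differences. The log2 fold change of AAV8-p21 over AAV8-null at 16 dpc was −0.03 for Rpl4 (95% interval −0.39 to 0.33), −0.03 for Rps6 (−0.43 to 0.37) and −0.02 for Rpl22l1 (−0.64 to 0.60). The difference of the virus effect between stages, tested as an interaction, had a median of −0.06 with 21 genes above 0, against 50.3% of all genes, and 60 below, and no member was called by edgeR, DESeq2 or limma voom, as for 0% of all genes. No member had an unadjusted p under 0.05 in it, against 3.09% of all genes. Without AAV8-p21 8 dpc library 3 its median was 0.18 and without library 1 it was −0.20.

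The raised p21 came from a vector here. Rps27l is known as a target gene of p53, as Cdkn1a is. It was at 99.2, 96.9 and 87.9 CPM at 8 dpc with AAV8-null and 81.6, 84.5 and 146 with AAV8-p21, and at 107, 72.5 and 94.7 and then 109.5, 93.5 and 73.0 at 16 dpc. Its groups overlapped at both stages, with log2 fold changes of 0.13 (SE 0.28) and 0.01 (SE 0.28). Its parent Rps27 was at 83.2, 85.6 and 85.8 with AAV8-null and 58.1, 68.0 and 109.6 with AAV8-p21 at 8 dpc, and at 116, 92.1 and 117 and then 96.3, 79.7 and 71.7 at 16 dpc, where it was the lowest member at −0.39 (SE 0.24, adjusted p = 0.600 by edgeR).

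The ratio of Rps27l to Rps27 was 0.944 ± 0.135 in NP mice, 1.12 ± 0.0859 and 1.33 ± 0.0814 at 8 dpc with AAV8-null and AAV8-p21, and 0.840 ± 0.0739 and 1.11 ± 0.0801 at 16 dpc (SD, n = 3). It was higher in 3 of 3 AAV8-p21 libraries than in every AAV8-null library at each stage, by 0.25 and 0.40 on the log2 scale. Each difference gave an exact permutation p = 0.1, the smallest possible, and 0.267 after Benjamini-Hochberg adjustment over the 24 ratio tests, 4 pairs in 6 comparisons. Of the windows of Rps27, 98.5% recur in other genes, among them the protein-coding copy Rps27rt, and of those of Rps27l 6.04%, so the Rps27 count is uncertain.

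In the other pairs, Rpl36al over Rpl36a was 0.447 ± 0.0398 in NP mice, 0.452 ± 0.0347 at 8 dpc and 0.636 ± 0.0722 at 16 dpc with AAV8-null, and 0.513 ± 0.0713 and 0.564 ± 0.0128 with AAV8-p21 (SD, n = 3). Under AAV8-null the 16 dpc ratio was above both earlier groups with no overlap, by 0.51 and 0.49 on the log2 scale (exact permutation p = 0.1 each, 0.267 adjusted over the 24 tests). Rpl36al shares 60.3% and Rpl36a 84.2% of its windows with other genes. Rpl7l1 over Rpl7, a pair in which the paralog serves in ribosome assembly, had group means of 0.244 to 0.316 and gave no exact permutation p below 0.2.

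Copies of these genes limit what a read count can say, since the deposited counts use reads that map to one place. In the transcripts of GENCODE M21 a median of 46.9% of the 86-base windows of a member also occurred in another annotated gene, 36 members shared at least 50%, and 77 shared windows with a pseudogene. Rps3 shared none. The shift from 8 to 16 dpc under AAV8-null was 0.27 in the median over the 36 members with at least 50% shared and 0.20 over the 45 others. In the genome, 19 members overlap another protein-coding gene, 15 of them on the opposite strand, and the strand setting of the counting is not given in the sources used here.

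Genes that serve the ribosome outside the name rule were followed as well. Fau and Rack1, which encode small subunit proteins, were not called in any comparison by edgeR. Fau was at 51.2 to 94.2 CPM and Rack1 at 218 to 349.5 CPM over the 15 libraries.

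Of 12 elongation factors and related TOP genes, 11 were higher at 16 than at 8 dpc under AAV8-null with a median log2 fold change of 0.34, and 12 under AAV8-p21 with a median of 0.27. The second median was 0.15 without AAV8-p21 8 dpc library 1 and 0.46 without library 3. Pabpc1, the poly(A)-binding protein, was the one called in each, 8.33% of the list beside the 6.87% and 3.32% of all genes given above. Under AAV8-null its 8 dpc libraries read 165, 174.5 and 183 CPM and its 16 dpc libraries 242, 282 and 281, with no overlap. It rose by 0.62 (SE 0.16, adjusted p = 0.0323) there and by 0.66 (SE 0.16, adjusted p = 0.0357) with AAV8-p21, by edgeR. The call under AAV8-null was lost without library 1 or 2 at 8 dpc or library 2 or 3 at 16 dpc. No gene of the list was called at 8 dpc or at 16 dpc against NP, or between the viruses.

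Of 36 translation initiation factors, 35 were higher at 16 than at 8 dpc under AAV8-null with a median of 0.31, and 33 under AAV8-p21 with a median of 0.24. The second median was 0.22 without AAV8-p21 8 dpc library 1, 0.25 without library 3 and 0.11 without the third AAV8-p21 library at 16 dpc, in the order in which values are given. Eif2b4, a subunit of the exchange factor eIF2B, stood at 21.5, 29.2 and 30.1 CPM at 8 dpc, then at 75.6, 41.7 and 65.0 at 16 dpc with AAV8-null. It rose by 1.17 from 8 to 16 dpc (SE 0.28, adjusted p = 0.0238), by 1.20 under AAV8-p21 (SE 0.28, adjusted p = 0.0310) and by 1.20 over NP (SE 0.28, adjusted p = 0.0197), by edgeR. Eif2s2 and Eif4a1 were also called higher from 8 to 16 dpc under AAV8-null, and Eif5 over NP (0.80, SE 0.22, adjusted p = 0.0426 by edgeR). The calls made up 8.33% of the list from 8 to 16 dpc under AAV8-null and 2.78% under AAV8-p21, and 5.56% at 16 dpc against NP, where 6.87%, 3.32% and 6.52% of all genes were called. No initiation factor was called lower in any comparison.

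Of 66 ribosome biogenesis factors, 59 were higher at 16 than at 8 dpc under AAV8-null with a median of 0.35 and 2 called higher, Nop2 and Tsr1, 3.03% of the list where 6.87% of all genes were called. Under AAV8-p21 the same step gave a median of 0.04, with 36 higher and none called. Its sign rested on single libraries: it was −0.05 without library 1 at 8 dpc, 0.05 without library 3 at 8 dpc, and −0.14 to 0.11 over all libraries left out in turn, lowest without the third library at 16 dpc. Directly compared at 16 dpc, 63 of the 66 were lower with AAV8-p21, with a median log2 fold change of −0.29, and the interaction of virus and stage had a median of −0.32 with 63 below 0, which was −0.41 without AAV8-p21 8 dpc library 1, −0.31 without library 3 and between −0.47 and −0.22 without any single library. No biogenesis factor was called in these last comparisons by edgeR. The direct difference at 16 dpc was between −0.43 and −0.18 without any single 16 dpc library, and −0.16 with 52 of 66 lower with library totals alone, when all genes were at 0.11. Tsr1, which helps mature the small subunit, was at 11.8, 15.5 and 20.0 CPM at 8 dpc and 23.9, 34.2 and 33.2 at 16 dpc with AAV8-null, and at 14.7, 19.7 and 15.5 and then 14.7, 20.3 and 30.9 with AAV8-p21. It rose by 0.95 under AAV8-null (SE 0.27, adjusted p = 0.0498 by edgeR), while its value under AAV8-p21 was 0.40 (SE 0.27). The medians for AAV8-p21 over AAV8-null at 16 dpc were thus −0.29 for the biogenesis factors and −0.04 for the ribosomal proteins, and this difference was not tested.

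The remaining lists had few calls or none. None of the 11 measured genes of RNA polymerase I and its factors and none of 22 genes of mTORC1 and TOP mRNA control was called in any comparison, where 0% to 6.87% of all genes were. Their medians from 8 to 16 dpc under AAV8-null were 0.22, between 0.14 and 0.31 without any single library, and 0.09, between 0.009 and 0.11 and lowest without 16 dpc library 2. Of 78 mitochondrial ribosomal protein genes, 39 were higher and 39 lower in that step, with a median of −0.01. Mrps36 and Mrpl18 were called lower at 16 dpc than in NP mice, at −1.08 (SE 0.29, adjusted p = 0.0412) and −0.82 (SE 0.21, adjusted p = 0.0301) by edgeR, 2.56% of the list beside 6.52% of all genes. With AAV8-p21 at 8 dpc 69 of the 78 were higher than with AAV8-null, with a median of 0.16, beside 0.15 for other genes under 1 kb of any function. This difference rested on AAV8-p21 library 3, without which the median was −0.005 with 38 higher and 40 lower, and it was 0.27 without library 1.

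The calls in these lists depended on single libraries, while the sign of the fold changes did not. Their size varied: without 1 library the log2 fold change over NP ran from 0.62 to 0.97 for Eif5. For Eif2b4 it ran from 1.02 to 1.46. Each of the 13 calls, over 9 genes, was lost when at least 1 library was left out, and 4 to 10 of the 15 did so for a given call, with adjusted p-values of up to 0.195. All 13 log2 fold changes kept their sign without any single library, at 0.58 to 0.69 for Pabpc1 and 0.98 to 1.38 for Eif2b4 from 8 to 16 dpc under AAV8-null, and −0.94 to −0.69 for Mrpl18 at 16 dpc against NP. With library totals alone the medians of the elongation, initiation and biogenesis lists from 8 to 16 dpc under AAV8-null turned to −0.36, −0.41 and −0.35, which are 0.34, 0.30 and 0.35 above the median of all genes, and only Mrps36 and Mrpl18 were still called.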

How the data were processed

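Poly(A) RNA of whole liver was sequenced as single 86-base reads. Per the labels and the study's methods, the authors trimmed reads with cutadapt 1.14, mapped them to mm10 with HISAT2 2.1.0 and counted uniquely mapped reads per protein-coding gene with HTSeq 0.12.4, with replicates kept apart. The deposited values are whole-number counts; the strand setting of the counting is not given in the sources used here. Library depth sets the counting error only.

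From the counts, genes passing the filterByExpr limit (minimum count 10) were fitted with edgeR 4.0.16 in R 4.3.3: a quasi-likelihood model over all 15 libraries and 5 groups with trimmed-mean (TMM) factors, 10 residual degrees of freedom and a common biological coefficient of variation of 0.277. P-values were adjusted by Benjamini-Hochberg over 12172 genes, and a gene was called at an adjusted p under 0.05. Standard errors are the log2 fold change divided by the root of the F statistic, and 95% intervals use 10 degrees of freedom. CPM are counts scaled by library total and TMM factor. A pseudocount of 0.5 was used only for deviations of library levels. Ratios within pairs were compared by two-sided exact permutation tests. DESeq2 1.42.0 and limma 3.58.1 (voom) were alternatives, with other scalings and filters, the compared groups alone, a replicate block and each library left out. Removal of NP library 1 together with AAV8-p21 8 dpc library 3 was added after seeing the data. The scripts were tested on simulated data.

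Groups came from the sample labels. The AAV8-p21 columns at 16 dpc carry numbers that do not match the labels, so these libraries are replicates without a number. Named genes were the members highest per kilobase, the 3 highest and 3 lowest in each comparison, paralogs and parents, the 3 farthest from the member median, the stalk genes and Rps6. Rpl5, Rpl9, Rpl12 and members listed for lack of overlap were named after their values were seen, as were Eif2s2, Eif4a1 and Nop2. The members and lists were chosen with earlier results of these data known. Shared 86-base windows were counted in GENCODE M21 transcripts (GRCm38). Of the list of RNA polymerase I, 3 of 14 symbols are not in the table under that name. Some single genes are not reported here.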

Additional observations from a re-analysis of the deposited data

How the results depend on the processing

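The members' median log2 fold changes turned sign under 19 of 176 alternatives over the 7 comparisons. They moved by less than 0.27, the pooled SD between libraries of a group and a value above the size of each reported median, under 173. The number of members called, 0 in 6 comparisons and 1 in the other, changed under 16 of 183 alternatives; a count that stays at 0 says nothing of stability. With library totals alone the medians were −0.59 (16 dpc against NP), −0.44 (16 against 8 dpc, AAV8-null) and −0.40 (AAV8-p21). In these, 56, 33 and 6 members were called lower and none higher, beside 50.5%, 53.5% and 35.5% of all genes called in either direction. Here albumin takes a larger share of the total at 16 dpc. Under that scaling 80 of the 81 members were lower in the first 2 of these, with Rpl4 and Rps3a1 turned in both and Rps13 in the latter. Among the named genes called with or without the trimmed-mean factors, the sign turned for Rpl7l1 (−0.55), Rplp0 (−0.41), Rps29 (−0.63) and Rps6 (−0.56) at 16 dpc against NP, and for Rpl22 (−0.64), Rpl7 (−0.62), Rpl7l1 (−0.64), Rplp0 (−0.44), Rplp2 (−0.44), Rps6 (−0.44), Pabpc1 (−0.0836) and Eif2s2 (−0.0615) from 8 to 16 dpc under AAV8-null. DESeq2 called 3 members at 16 dpc against NP (Rpl3, Rpl4, Rpl22l1), 5 from 8 to 16 dpc under AAV8-null (Rpl3, Rpl4, Rpl5, Rpl22l1, Rps3a1) and 6 under AAV8-p21 (Rpl3, Rpl4, Rpl5, Rpl9, Rpl10a, Rpl22l1), beside 9.95%, 11.3% and 6.69% of all genes; the cause was not tested. The compared groups alone gave 1 (Rpl22l1) in the last of these. Leaving out both NP library 1 and AAV8-p21 8 dpc library 3, which were picked by their level of these genes, gave 2 (Rpl12, Rpl22l1), 3 (Rpl4, Rps13, Rps3a1) and 3 (Rpl4, Rpl10a, Rps13). Leaving out 1 library gave 0 to 1, 0 to 1 and 0 to 2. The shares without albumin were 1.26% at 8 dpc and 1.13% at 16 dpc with AAV8-null, and 1.10% at 16 dpc with AAV8-p21.

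Medians without 1 library ran from −0.25 to 0.08 (8 dpc against NP), −0.02 to 0.30 (16 dpc against NP), 0.14 to 0.31 (16 against 8 dpc, AAV8-null), −0.23 to 0.17 and −0.13 to 0.05 (AAV8-p21 against AAV8-null at 8 and 16 dpc), 0.02 to 0.42 (16 against 8 dpc, AAV8-p21) and −0.20 to 0.18 (interaction), so the step from 8 to 16 dpc kept its sign throughout under either virus and the other medians did not.

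Replicate numbers did not pair the libraries: libraries of 1 number deviated with a mean correlation of 0.01, above 0.1 in 7 of 18 cases. A replicate block on the 12 numbered libraries gave medians of −0.13, 0.08, 0.25 and 0.02 and changed no call of a member, with Rpl22l1 at an adjusted p of 0.0483 by edgeR against 0.0287 without the block. No blocked value was possible for comparisons with AAV8-p21 at 16 dpc because its columns carry no matching numbers.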
